A study of Mus musculus with 12 samples.

Results

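The potassium channel genes and the hyperpolarization-activated pacemaker channel genes were examined in RNA from mouse cardiomyocytes after pressure overload. Members were all rows of the count table whose symbol begins with Kcn and names a potassium channel subunit or a related transcript, together with the pacemaker channel genes whose symbol begins with Hcn. The rule found 103 of 49568 genes, of which 81 encode pore or silent pore-like subunits, 16 encode accessory subunits and 6 are antisense or regulatory genes that encode no channel subunit. The 12 libraries form 4 groups of 3. The dKO TAC and dKO sham groups have the genotype MHC-MerCreMre/+; Mrtf-a-/-; Mrtf-bflox/flox, which lacks myocardin-related transcription factor A in every cell and carries a floxed factor B gene. The control TAC and control sham groups have the genotype alphaMHC-MerCreMre/+. The Cre transgene is driven by a cardiomyocyte promoter, needs tamoxifen to act and is shared by all 4 groups, as is the tamoxifen, injected daily 3 times, at 30 ug/g, when the mice were 8 weeks old. All mice were male. TAC is a constriction of the aorta that raises the pressure load on the left ventricle, and sham is the surgery without it. The protocol places surgery at 10 weeks and the design text at 8 weeks, and cells were isolated 7 days after surgery, at 11 weeks of age. The labels do not say whether each library came from a separate mouse, so p-values measure the spread between these libraries, which may be partly technical.

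Potassium channels carry the outward currents that end the cardiac action potential and hold the resting potential, and their pores are built by several families. In the mouse ventricle the fast transient outward current is carried by Kv4 pores together with the accessory protein KChIP2, slower delayed currents by other voltage-gated pores, and the resting conductance by Kir2 inward rectifiers. Kir3 channels answer vagal acetylcholine, Kir6 channels sense ATP through sulfonylurea receptors, tandem-pore channels carry background leak, and SK channels open with calcium. Pacemaker channels of the HCN family carry an inward current at negative potentials and are best known from the sinus node. Loss of transient outward current and of its subunits is a long-known feature of hypertrophied ventricle in rodents.

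Total counts per library lay between 20082000 and 29675212. A value of 3 counts corresponded to 0.0935 to 0.184 CPM (counts scaled by the TMM-adjusted library size), a floor that covers counting error only. Mkl1, which encodes factor A, had 2.5, 2.93 and 2.22 CPM in dKO TAC, 2.15, 2.88 and 3.2 in dKO sham, 9.32, 16 and 15.6 in control TAC, and 7.59, 11.4 and 8.89 in control sham, so all dKO libraries lay below all control libraries. Its log2 change in dKO was -2.42 ± 0.27 after TAC (SE; adjusted p = 0.00182) and -1.75 ± 0.27 after sham (adjusted p = 0.0409). Mkl2, which encodes factor B, averaged 23.6 CPM in dKO TAC, 21.8 in dKO sham, 34.3 in control TAC and 40.3 in control sham, with every dKO library below every control library, and did not pass the test (adjusted p = 0.518 after TAC and 0.507 after sham). The labels do not give its floxed exons, so reads from exons left in place may be counted. The 7 cardiomyocyte markers were present in every library, at a summed 37132 to 101395 CPM. Markers of other cells were present too, with a summed level of 7 fibroblast markers of 2374 to 3246 CPM in dKO TAC, 240 to 581 in dKO sham, 938 to 7900 in control TAC and 343 to 715 in control sham. In bulk RNA, fewer cells of a type and less RNA per cell cannot be told apart. The libraries dKO sham replicate 1 and dKO TAC replicate 2 stood apart. In them the deviation from the mean of the other replicates fell with transcript length (Spearman rho across 9887 genes -0.622 and -0.593, against 0.452 to 0.645 in the other dKO libraries and -0.105 to 0.116 in the control libraries), and mitochondrial genes took 16.5% and 15.3% of counts, against 23.2% to 32.6% in the other libraries.

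Of the 103 members, 11 had no count in any library and 35 had counts but were too low for testing, with at most 53 counts in any library and a mean of at most 0.251 CPM. The filter on low counts left 57 members among 14712 tested genes. These comprised 44 pore and silent subunits, 11 accessory subunits and the antisense genes Kcnd3os and Kcnq1ot1. Of the 57, 18 averaged under 1 CPM, 22 between 1 and 10, 14 between 10 and 100, and 3 at least 100 CPM. Levels were divided by exon length so that genes can be compared. That length joins all annotated exons of a gene, so it can exceed that of the transcript expressed here. The 10 most abundant members made up 82.0% of the summed level per kb over all libraries. Kcnk3, the tandem-pore leak channel TASK-1, led with 56.6 CPM per kb. It was followed by Kcnip2, which encodes KChIP2, at 38.9 CPM per kb, by Kcnj11, the pore of the ventricular ATP-sensitive channel, at 32.9, and by the silent subunit gene Kcng2 at 23.2. Kcnj8 (16.3 CPM per kb), Kcnh2 (15.3), Kcnj5 (11.2), Kcnq1 (10.2), Kcna5 (8.78) and Kcnj3 (8.12) completed the 10. The 10 thus comprised 1 accessory gene together with leak, inward rectifier, voltage-gated and silent subunit genes. The Kv4 pore genes Kcnd2 and Kcnd3 were not among them, at 2.9 and 1.38 CPM per kb.

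Summed over all members, the level was 773 to 864 CPM in dKO TAC, 1121 to 1497 in dKO sham, 783 to 1138 in control TAC and 1149 to 1345 in control sham. Both TAC groups therefore lay below the sham group of the same genotype in every library. Pore and silent subunits summed to 747 ± 43.9 CPM in dKO TAC (SD, n = 3), 1087 ± 151 in dKO sham, 774 ± 152 in control TAC and 1060 ± 103 in control sham. Accessory subunits summed to 57.1 ± 7.27 CPM in dKO TAC, 185 ± 46.3 in dKO sham, 150 ± 39.9 in control TAC and 217 ± 10.7 in control sham. The accessory sum was set mostly by Kcnip2, and the dKO TAC libraries, at 50.7 to 65 CPM, lay below every other library.

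The first question was how channel genes differed after TAC when averaged over both genotypes. On that average, 18 of the 57 tested members passed the test, 6 higher and 12 lower after TAC, where 16.6% of all tested genes passed, 9.53% higher and 7.08% lower (quasi-likelihood F test of edgeR, with p adjusted by Benjamini-Hochberg over all tested genes and a threshold of 0.05). The members that fell included the accessory gene Kcnip2, the silent subunit Kcnv2, the delayed rectifier pore Kcnh2, the inward rectifiers Kcnj3, Kcnj5, Kcnj8 and Kcnj11, the SK pores Kcnn1 and Kcnn2, and the pacemaker pores Hcn2 and Hcn4. The members that rose were the accessory genes Kcne1, Kcne3 and Kcne1l, the inward rectifiers Kcnj14 and Kcnj15, and the Kv4 pore Kcnd1. All 18 had the same sign in both genotypes. In 1 of these genes, Kcnd1, every TAC library lay above every sham library, beside 3.83% of all tested genes, and in 5, among them Kcnv2, Kcnh2, Kcnj3 and Hcn2, every TAC library lay below every sham library, beside 2.71%. At an unadjusted p under 0.05 there were 12 members higher and 18 lower, beside 32.1% of all genes in either direction. The median log2 change was -0.37 over the 44 tested pore and silent subunits and 0.62 over the 11 tested accessory subunits, beside -0.01 over all tested genes. Each gene counts equally in these medians, and every tested accessory gene except Kcnip2 lay at 1.77 CPM per kb or less. The accessory sum given above was lower after TAC in both genotypes. Pore and silent subunits passed 3 higher and 11 lower, and accessory subunits 3 higher and 1 lower. Cardiomyocyte markers moved too: 2 of 7 passed as lower, none was at 0, and they summed to 37132 to 42743 CPM in dKO TAC, 48718 to 101395 in dKO sham, 41975 to 68465 in control TAC and 51113 to 67096 in control sham. Their part in the lower channel genes was not tested. Without dKO TAC replicate 1 the count was 11 rather than 18, beside 9.11% of all genes. The calls of Hcn4, Kcnd1, Kcne1, Kcne1l, Kcnj5, Kcnj8 and Kcnn1 were lost.

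**Figure D1:**
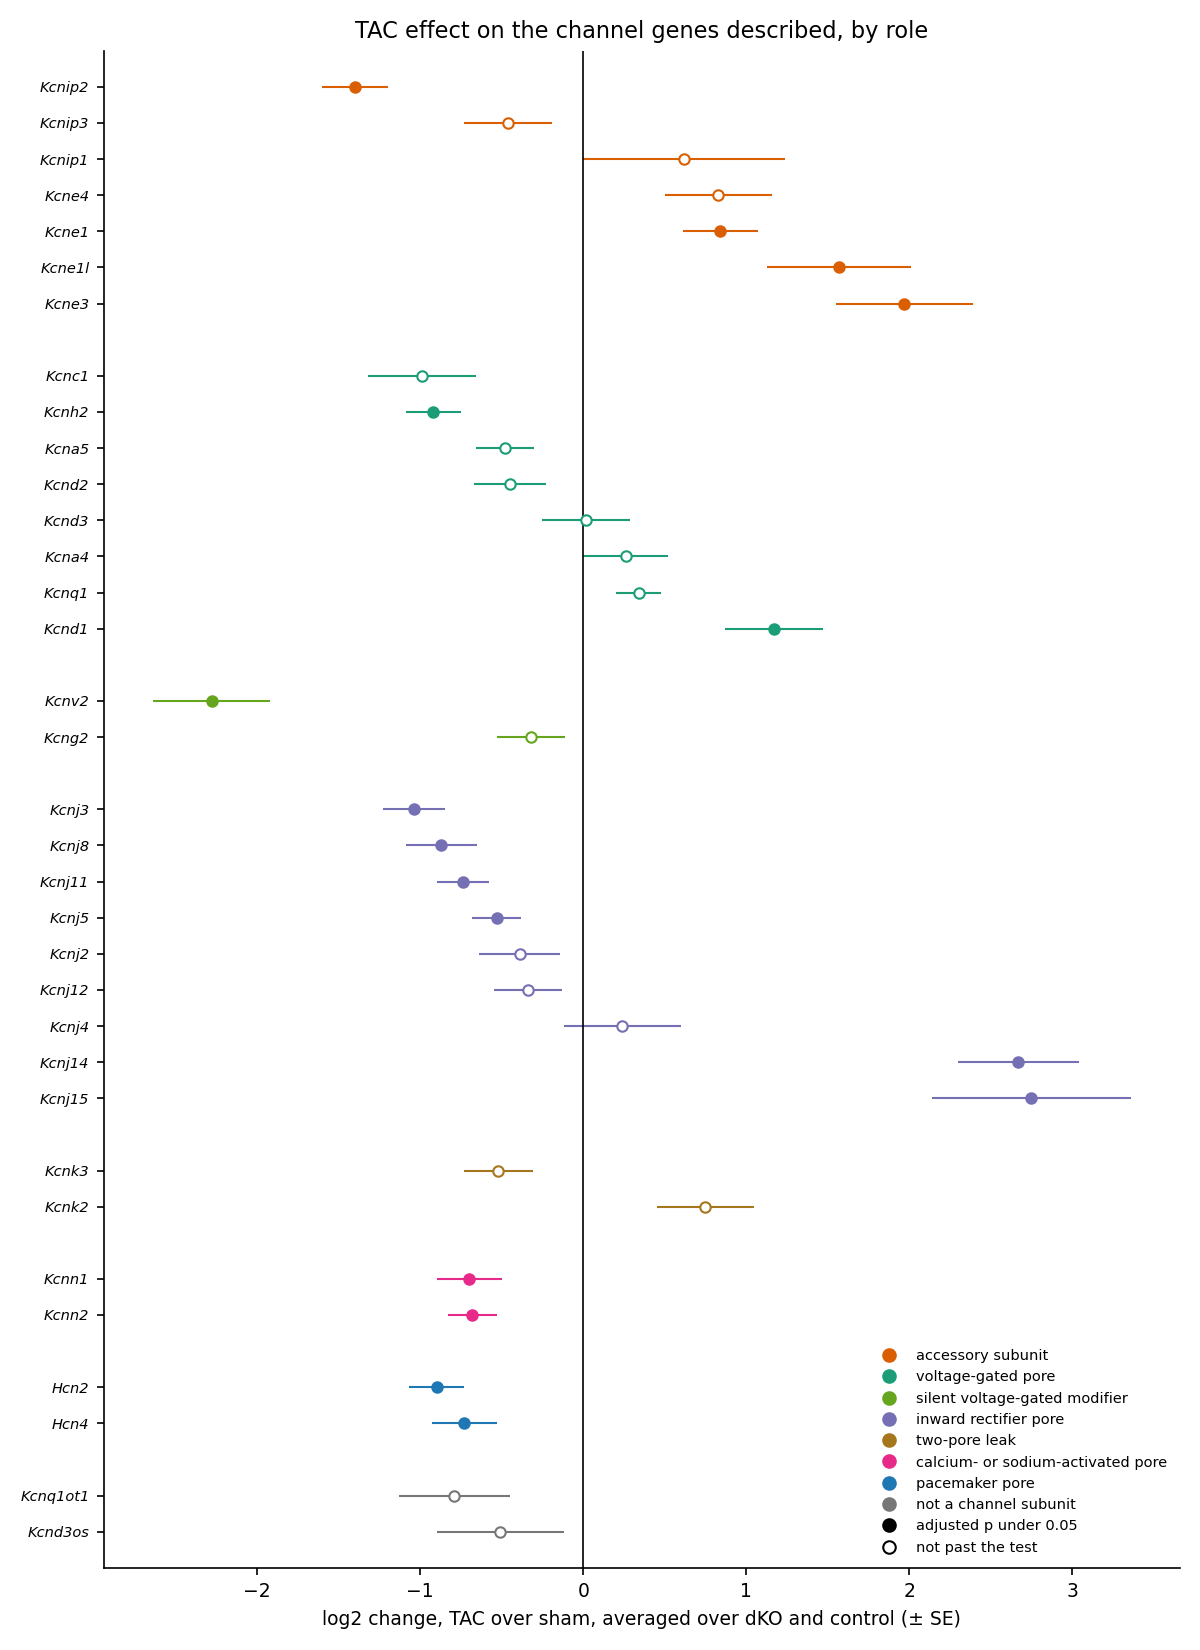
Log2 change after TAC, averaged over dKO and control, with SE, for the tested members described in the text, grouped by role. Filled points passed the test, and of the accessory genes shown, Kcnip2 and Kcnip3 lie left of 0 and the others right of it.

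Taken genotype by genotype, fewer members passed. In dKO, 6 of 57 passed, with Kcnj14 higher and Hcn2, Kcnh2, Kcnip2, Kcnj3 and Kcnv2 lower, where 7.39% of all genes passed, 4.2% higher and 3.19% lower. At an unadjusted p under 0.05 there were 6 higher and 13 lower, beside 27.6% of all genes. The dKO TAC libraries lay wholly above dKO sham for 7 members, beside 16.2% of all genes, and wholly below for 17, beside 14.5%. In control, 1 of 57 passed, Kcnv2, where 2.25% of all genes did, 1.9% higher and 0.347% lower. At an unadjusted p under 0.05 there were 6 higher and 12 lower, beside 16.9% of all genes. The control TAC libraries lay wholly above control sham for 6 members, beside 11% of all genes, and wholly below for 12, beside 10.8%. The count in control depended on single libraries. It was 12 without control TAC replicate 1, beside 7.53% of all genes, and 5 without dKO sham replicate 1, beside 4.81%. It was 2 without control sham replicate 2, beside 2.83%, and 0 without any 1 of the other 9 libraries, beside 0.0132% to 1.68%. These fits tested 58 to 61 members. The 12 consisted of Kcnv2 with Kcnc1, Kcnd1, Kcne4, Kcnip2, Kcnj11, Kcnj14, Kcnj15, Kcnj3, Kcnj5, Kcnk2 and Kcnma1. Kcnma1 was too low for testing in the fit of all libraries and is not among the 57. Most of its control TAC counts lay in 1 library, so that call carries no weight. Control TAC replicate 1 had the lowest fibroblast marker sum of the 6 TAC libraries, at 938 CPM. In dKO the count fell to 2, Kcnip2 and Kcnj14, without dKO TAC replicate 1, beside 1.4% of all genes, or without dKO TAC replicate 3, beside 2.03%. A gene that passed in dKO and not in control is not thereby shown to differ, and the interaction was tested for each member. No member passed it (0 of 57, beside 0% of all genes; edgeR quasi-likelihood test), 2 had an unadjusted p under 0.05, Kcnip2 and Kcnip1, beside 4.74% of all genes, and DESeq2 called 0.

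Among the transient outward current genes, the accessory gene Kcnip2 fell after TAC and the Kv4 pore genes Kcnd2 and Kcnd3 did not pass. Kcnip2 (chromosome 19, 45791839 to 45816061, GRCm38) had 32.3, 37.2 and 50.6 CPM in dKO TAC, 226, 157 and 137 in dKO sham, 179, 94.9 and 104 in control TAC, and 206, 185 and 213 in control sham. The 3 dKO TAC libraries lay below all 9 others, and the control TAC libraries lay below the control sham libraries, with replicate 1 close to them. Kcnip2 fell after TAC in dKO (log2 -2.12 ± 0.28, SE; adjusted p = 0.00278, edgeR, Benjamini-Hochberg). In control its estimate was -0.68 ± 0.27 (adjusted p = 0.224), and the interaction was -1.44 ± 0.39, with an unadjusted p of 0.00274 and an adjusted p of 0.841. The fall in dKO passed under all 21 alternative settings, with log2 values from -2.31 to -1.83.

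The Kv4 pores were measured beside it. Kcnd2 had 7.92, 5.99 and 14.2 CPM in dKO TAC, 7.5, 15.5 and 12.5 in dKO sham, 17.5, 15.7 and 13.6 in control TAC, and 26.2, 18.8 and 24 in control sham. Its control TAC libraries lay below the control sham libraries, the dKO groups overlapped, and its averaged TAC effect of -0.45 ± 0.22 had an adjusted p of 0.186. Kcnd3 averaged 13.2 ± 4.44 CPM in dKO TAC, 11.2 ± 5.76 in dKO sham, 13.4 ± 2.82 in control TAC and 15.2 ± 1.93 in control sham (SD, n = 3), and its groups overlapped throughout. Kcnd1, the least abundant Kv4 pore gene, rose after TAC averaged over genotypes (1.17 ± 0.30; adjusted p = 0.0203), with 0.779 to 1.01 CPM in dKO TAC, 0.369 to 0.576 in dKO sham, 0.749 to 2.28 in control TAC and 0.457 to 0.557 in control sham. Every TAC library lay above every sham library, but without dKO TAC replicate 1, control sham replicate 1 or control sham replicate 3 the adjusted p was 0.0596, 0.0565 and 0.0569. Kcnip3, a KChIP family member, averaged 1.24 CPM in dKO TAC, 1.58 in dKO sham, 1.54 in control TAC and 2.32 in control sham and did not pass.

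Set against each other per kb, Kcnip2 exceeded the sum of Kcnd2 and Kcnd3 in every library, and the ratio was lowest in dKO TAC. The ratio was 2.97, 5.32 and 3.26 in dKO TAC, 33.7, 9.98 and 10.0 in dKO sham, 10.0, 6.3 and 7.81 in control TAC, and 9.14, 10.2 and 9.48 in control sham. The value of 33.7 belongs to dKO sham replicate 1, one of the libraries with a length trend, and in that library the longer Kcnd3 transcript had 4.55 CPM, against 14.6 and 14.5 in the other dKO sham libraries. Without both libraries that stood apart, the ratio remained 2.97 and 3.26 in dKO TAC, against 9.98 and 10.0 in dKO sham.

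**Figure D2:**
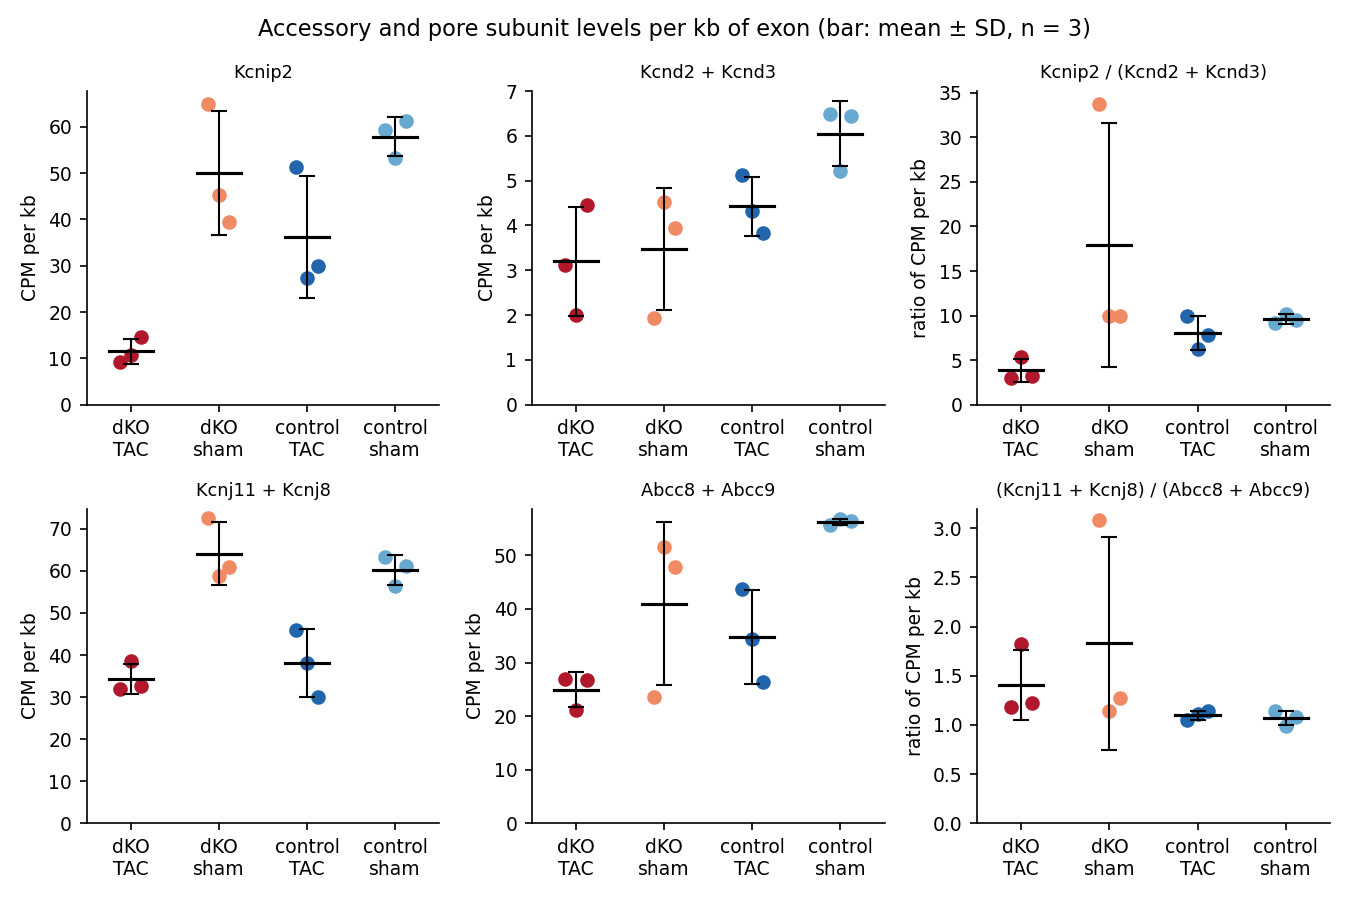
Levels in CPM per kb of exon, and ratios of such levels, by library, with the mean and SD of 3 libraries. In the upper row, Kcnip2 in dKO TAC, at 9.29 to 14.5 CPM per kb, lies below all other libraries while the Kv4 pore sum overlaps dKO sham. In the lower row, the Kir6 pores and their sulfonylurea receptors are both lower in the TAC groups than in control sham.

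Among the delayed rectifier genes, Kcnv2 and Kcnh2 fell. Kcnv2, on chromosome 19 from 27322588 to 27337179, encodes the silent subunit Kv8.2, which forms channels together with other voltage-gated subunits. It had 1.18, 0.998 and 1.68 CPM in dKO TAC, 5.22, 8.53 and 4.93 in dKO sham, 4.83, 0.854 and 2.28 in control TAC, and 16.3, 7.83 and 14.4 in control sham. All 6 TAC libraries lay below all 6 sham libraries. Kcnv2 fell after TAC in dKO (-2.28 ± 0.52; adjusted p = 0.0242) and in control (-2.27 ± 0.51; adjusted p = 0.0407), with an interaction estimate of -0.01 (adjusted p = 0.999). The call in control was lost, at adjusted p-values of 0.0513 to 0.175, without any 1 library other than dKO sham replicate 1, control TAC replicate 1 and control sham replicate 2. It was also lost when the 2 control groups were fitted alone. The call in dKO was lost without dKO TAC replicate 1, 2 or 3 (0.112, 0.0645 and 0.0652) or dKO sham replicate 2 (0.0622), and the averaged fall of -2.28 ± 0.36 (adjusted p = 0.00202) passed under all 20 settings run. Kcng2, another silent subunit gene, had 66.4 to 76.5 CPM in dKO TAC, 60.6 to 139 in dKO sham, 41.8 to 61.4 in control TAC and 55.1 to 76.4 in control sham and did not pass.

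Kcnh2, on chromosome 5 from 24319589 to 24351604, encodes the ERG pore of the rapid delayed rectifier. It had 45.9, 60.7 and 52.3 CPM in dKO TAC, 140, 102 and 82.9 in dKO sham, 58.2, 39.2 and 49.4 in control TAC, and 91.8, 64.6 and 102 in control sham. Every TAC library lay below every sham library. Kcnh2 fell in dKO (-1.03 ± 0.24; adjusted p = 0.0253) and averaged over genotypes (-0.92 ± 0.17; adjusted p = 0.00426), and in control it had -0.81 ± 0.24 (adjusted p = 0.105). The dKO call was lost without dKO TAC replicate 1 (0.13), dKO TAC replicate 3 (0.0933) or dKO sham replicate 1 (0.0525). It was also lost when the 2 dKO groups were fitted alone.

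The slow delayed rectifier pore Kcnq1 averaged 50.2 ± 1.69 CPM in dKO TAC, 36.9 ± 11.1 in dKO sham, 43 ± 2.48 in control TAC and 36.4 ± 3.46 in control sham, and its averaged TAC estimate of 0.34 ± 0.14 had an adjusted p of 0.104. Its accessory subunit gene Kcne1 had 6.16, 4.02 and 4.97 CPM in dKO TAC, 4.73, 2.66 and 2.3 in dKO sham, 8.05, 7.72 and 10 in control TAC, and 3.88, 5.91 and 2.98 in control sham. Kcne1 rose averaged over genotypes (0.84 ± 0.23; adjusted p = 0.0271), with separate groups in control and an overlap in dKO. That call was lost, at 0.0509 to 0.0805, without any 1 of dKO TAC replicates 1 and 3, dKO sham replicates 2 and 3, control TAC replicates 2 and 3 and control sham replicates 1 and 3. Other KCNE genes, at low levels, rose as well. Kcne3, best known as a Kcnq1 partner in epithelia, averaged 0.52 ± 0.36 CPM in dKO TAC, 0.163 ± 0.0775 in dKO sham, 0.908 ± 0.227 in control TAC and 0.18 ± 0.108 in control sham (1.97 ± 0.42; adjusted p = 0.00933). Kcne1l, named Kcne5 elsewhere, averaged 0.408 CPM in dKO TAC, 0.13 in dKO sham, 0.342 in control TAC and 0.111 in control sham (1.57 ± 0.44; adjusted p = 0.0309), and its call was lost without any 1 of 8 libraries and in 3 other settings. Those 8 were dKO TAC replicates 1 and 2, dKO sham replicate 3, control TAC replicates 2 and 3 and all 3 control sham libraries, at 0.0572 to 0.0831. Kcnq1ot1, the long antisense RNA within Kcnq1, averaged 0.991 ± 0.495 CPM in dKO TAC, 2.39 ± 1.29 in dKO sham, 1.46 ± 0.421 in control TAC and 1.79 ± 0.594 in control sham and did not pass. Kcnd3os, an antisense gene beside Kcnd3, averaged 0.405 CPM in dKO TAC, 0.562 in dKO sham, 0.255 in control TAC and 0.391 in control sham.

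The Kv1 pores did not pass for TAC. Kcna5, which encodes Kv1.5 of the mouse ultrarapid current, had 16.1, 13 and 12.1 CPM in dKO TAC, 22.5, 22.3 and 20.1 in dKO sham, 16.8, 32.5 and 37.8 in control TAC, and 32.7, 43.1 and 32.3 in control sham. The dKO TAC libraries lay below the dKO sham libraries, and the control groups overlapped through control TAC replicate 2 and replicate 3. Its estimate was -0.66 ± 0.26 in dKO (adjusted p = 0.129) and -0.31 ± 0.26 in control (adjusted p = 0.62). Kcna4, which encodes Kv1.4 of the slow transient current, averaged 1.62 ± 0.307 CPM in dKO TAC, 1.08 ± 0.506 in dKO sham, 1.29 ± 0.216 in control TAC and 1.32 ± 0.351 in control sham, with no separation.

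**Figure D3:**
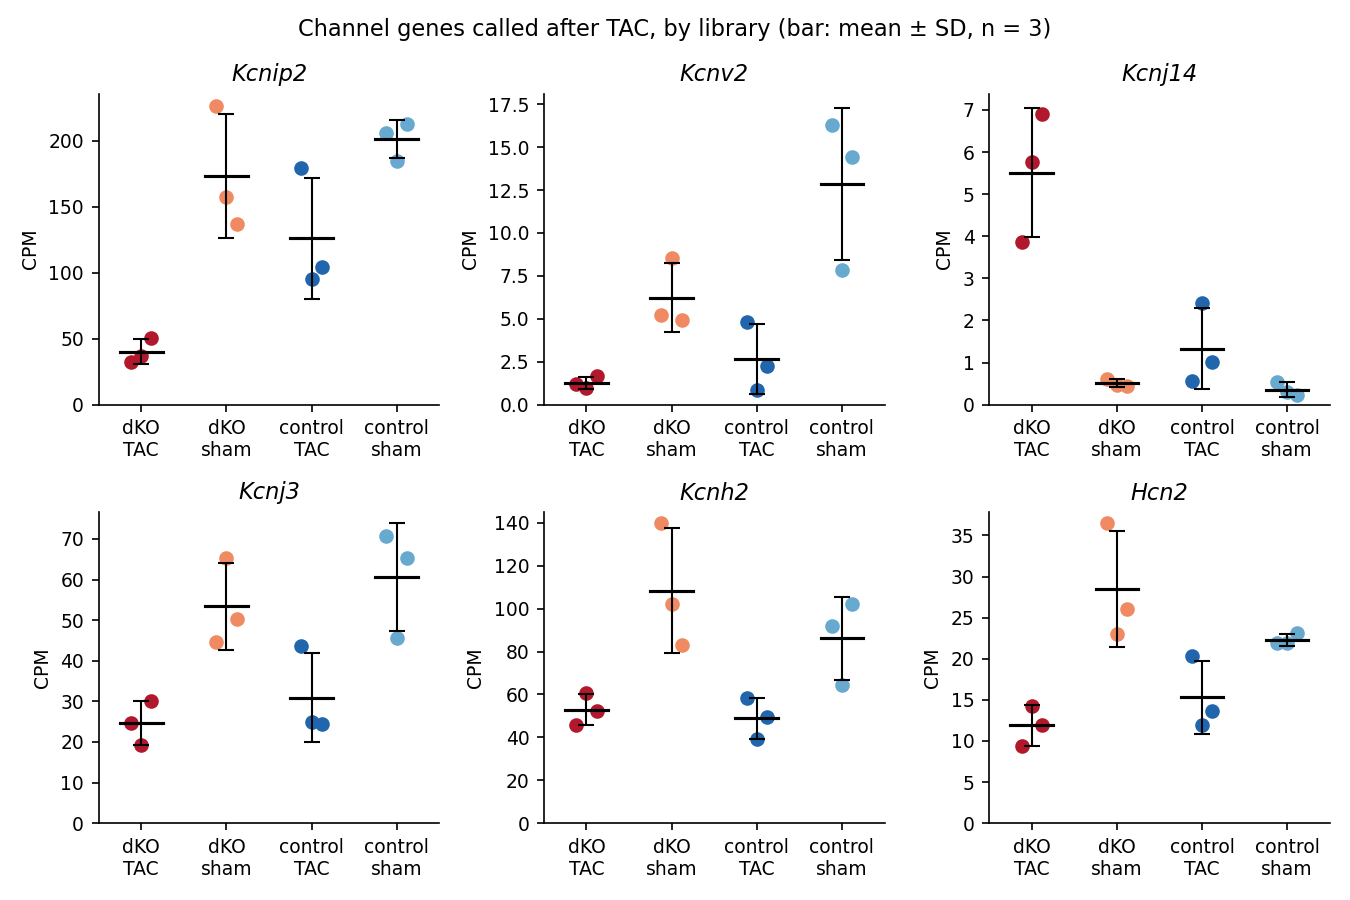
CPM by library, with the mean and SD of 3 libraries, for the 6 members that passed the test after TAC in dKO. Kcnip2 and Kcnj14 in dKO TAC stand clear of all other libraries, and for Kcnv2, Kcnj3, Kcnh2 and Hcn2 both TAC groups lie below both sham groups.

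The inward rectifiers moved in both directions. Of 9 tested members, Kcnj14 and Kcnj15 rose and Kcnj3, Kcnj5, Kcnj8 and Kcnj11 fell after TAC averaged over genotypes. In that comparison 9.53% of all tested genes passed as higher and 7.08% as lower. Kcnj14, which encodes Kir2.4 (chromosome 7, 45816460 to 45824782), had 3.86, 5.77 and 6.9 CPM in dKO TAC, 0.614, 0.468 and 0.452 in dKO sham, 0.562, 2.42 and 1.01 in control TAC, and 0.548, 0.3 and 0.223 in control sham. The dKO TAC libraries lay above all 9 others, and control TAC lay just above control sham. Kcnj14 rose in dKO (3.44 ± 0.52; adjusted p = 0.00481) under all 21 alternative settings, and in control its estimate was 1.90 ± 0.54 (adjusted p = 0.0938). The interaction of 1.53 ± 0.75 had an unadjusted p of 0.0631. A processed pseudogene, Gm5522, matches Kcnj14 over 1242 nt at 99.1% identity on the same strand. Gm5522 had 0 counts in all 12 libraries, and the sources used here do not give how reads matching both places were counted, so the level of Kcnj14 is uncertain.

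The main resting-current genes of the same family did not pass. Kcnj2 averaged 29.6 ± 6.24 CPM in dKO TAC, 34.9 ± 12.8 in dKO sham, 25.8 ± 10.7 in control TAC and 37.8 ± 12.4 in control sham. Kcnj12 averaged 21.3 ± 5.37 CPM in dKO TAC, 21.3 ± 4.81 in dKO sham, 15.2 ± 5.75 in control TAC and 24.2 ± 6.48 in control sham. Both overlapped in every comparison. Per kb, Kcnj14 made up 9.55%, 17.1% and 13.4% of the summed Kir2 genes Kcnj2, Kcnj12, Kcnj14 and Kcnj4 in dKO TAC, 2.18%, 0.963% and 1.08% in dKO sham, 1.34%, 8.97% and 4.82% in control TAC, and 1.07%, 0.892% and 0.485% in control sham. Every dKO TAC share lay above every other library's, and Kcnj2 and Kcnj12 still held most of the sum.

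Kcnj15, which encodes Kir4.2, had 9.78, 2.65 and 7.35 CPM in dKO TAC, 0.492, 1.37 and 1.81 in dKO sham, 2.58, 6.72 and 30.9 in control TAC, and 0.731, 2.87 and 1 in control sham. The highest value, in control TAC replicate 3, was in the library with the highest sums of fibroblast markers (7900 CPM) and macrophage markers (655 CPM). Its dKO TAC libraries lay above dKO sham and the control groups overlapped. Kcnj15 rose averaged over genotypes (2.75 ± 0.61; adjusted p = 0.0109). Of the 7 fibroblast markers 4 also rose in that comparison and of the 8 macrophage markers 1 did, beside 9.53% of all tested genes. None of either list was at 0 in any library. The part of these markers' cells in the Kcnj15, Kcnd1 and KCNE results was not tested. Macrophage markers summed to 234 to 452 CPM in dKO TAC, 223 to 277 in dKO sham, 191 to 655 in control TAC and 134 to 296 in control sham.

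The Kir3 genes, whose products form the acetylcholine-activated channel, both fell after TAC averaged over genotypes. Kcnj3 (chromosome 2, 55435970 to 55598145) had 24.6, 19.2 and 30 CPM in dKO TAC, 44.7, 65.2 and 50.2 in dKO sham, 43.6, 24.9 and 24.3 in control TAC, and 70.8, 45.5 and 65.4 in control sham. All TAC libraries lay below all sham libraries. Kcnj3 fell in dKO (-1.12 ± 0.27; adjusted p = 0.0296) and averaged over genotypes (-1.04 ± 0.19; adjusted p = 0.00433), and in control it had -0.97 ± 0.27 (adjusted p = 0.0917). The dKO call was lost without dKO TAC replicate 1, 2 or 3 (0.121, 0.0763 and 0.0615) or dKO sham replicate 2 (0.075). Kcnj5, the other subunit of that channel, had 44.7, 46.6 and 46 CPM in dKO TAC, 49.6, 59.7 and 50.3 in dKO sham, 51, 30.7 and 36.9 in control TAC, and 74.1, 52.6 and 87.7 in control sham. It fell averaged over genotypes (-0.53 ± 0.15; adjusted p = 0.0347), a call that was lost, at 0.059 to 0.101, without any 1 of the 3 dKO TAC libraries, dKO sham replicate 2, control TAC replicates 2 and 3 and control sham replicates 1 and 3. Per kb, Kcnj3 stood at 0.371 to 0.585 of Kcnj5 in dKO TAC, 0.809 to 0.981 in dKO sham, 0.591 to 0.768 in control TAC and 0.67 to 0.858 in control sham.

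Kir3 channels are most abundant in atria, and atrial markers varied between libraries. The sum of 5 atrial markers was 11.7 to 20.7 CPM in dKO TAC, 10.3 to 157 in dKO sham, 55 to 214 in control TAC and 14.7 to 54.7 in control sham, and 0 of its 4 tested genes passed after TAC in either genotype. In edgeR's test 3 of the 4 had an unadjusted p under 0.05 and were lower after TAC in dKO, beside 27.6% of all genes in either direction, and 1 had such a p and was higher after TAC in control, beside 16.9%. The defining atrial gene Sln was at 0 in dKO TAC replicate 1 and dKO sham replicate 1, and Bmp10 was at 0 in 7 libraries. In the order of the Kcnj3 values given above, the atrial sum was 12.2, 20.7 and 11.7 CPM in dKO TAC, 10.3, 92.9 and 157 in dKO sham, 214, 119 and 55 in control TAC, and 54.7, 29.7 and 14.7 in control sham. It was thus lower in dKO TAC than in 2 of the 3 dKO sham libraries, and higher in every control TAC library than in every control sham library. The part of atrial RNA in the Kcnj3 and Kcnj5 results was not tested. Exons of an RNA gene on the opposite strand, Gm26794, cover 31.1% of the Kcnj3 exons, and it averaged 0.134 CPM in dKO TAC, 0.287 in dKO sham, 0.139 in control TAC and 0.37 in control sham.

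Both Kir6 pore genes fell after TAC averaged over genotypes. Kcnj11, the Kir6.2 pore of ventricular ATP-sensitive channels, had 83.8, 81 and 98.8 CPM in dKO TAC, 185, 142 and 132 in dKO sham, 123, 86.4 and 71.8 in control TAC, and 167, 117 and 165 in control sham. The dKO groups were separate and the control groups overlapped through 1 library of each. Its averaged change was -0.74 ± 0.16 (adjusted p = 0.0107). Kcnj8, the Kir6.1 pore known from vessels and pericytes, had 23.1, 42 and 14.9 CPM in dKO TAC, 56.6, 51.8 and 63.8 in dKO sham, 32.1, 37.4 and 26.7 in control TAC, and 45.9, 62.4 and 41.7 in control sham. Its TAC libraries lay below the sham libraries of the same genotype, and the averaged change was -0.87 ± 0.22 (adjusted p = 0.0192). That call was lost without dKO TAC replicate 1 (0.0574) or control TAC replicate 3 (0.0528). Of 6 pericyte and smooth muscle markers, with Kcnj8 left out, 0 passed in this comparison, none was at 0, and their sum was 539 to 759 CPM in dKO TAC, 475 to 1073 in dKO sham, 748 to 1083 in control TAC and 756 to 1311 in control sham. Their part in the Kcnj8 result was not tested.

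The sulfonylurea receptors that complete these channels were measured as partners. Abcc9 averaged 167 CPM in dKO TAC, 290 in dKO sham, 254 in control TAC and 423 in control sham and fell averaged over genotypes (-0.77 ± 0.24; adjusted p = 0.0468). Abcc8 averaged 41 CPM in dKO TAC, 52 in dKO sham, 35.4 in control TAC and 46.7 in control sham and did not pass. The ratio of summed Kir6 pores to summed receptors per kb was 1.18, 1.82 and 1.22 in dKO TAC, 3.08, 1.14 and 1.27 in dKO sham, 1.05, 1.11 and 1.14 in control TAC, and 1.14, 0.991 and 1.08 in control sham. The values of 3.08 and 1.82 belong to the libraries with a length trend, and elsewhere the ratio lay between 0.991 and 1.27. In control, where no library had a length trend, the TAC and sham ratios overlapped.

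The calcium-activated SK pores Kcnn1 and Kcnn2 also fell averaged over genotypes. Kcnn1 had 8.29, 9.85 and 11.2 CPM in dKO TAC, 26.8, 14.4 and 13.2 in dKO sham, 11.8, 8.93 and 8.06 in control TAC, and 15.6, 10.5 and 15.2 in control sham (-0.70 ± 0.20; adjusted p = 0.0313). The highest value was in dKO sham replicate 1, and the call was lost, at 0.059 to 0.0895, without any 1 of dKO TAC replicates 1 and 2, control TAC replicates 2 and 3 and control sham replicates 1 and 3. Kcnn2 had 3.79, 3.4 and 5.09 CPM in dKO TAC, 7.43, 6.76 and 5.12 in dKO sham, 6.7, 5.73 and 6.49 in control TAC, and 11, 8.78 and 11.2 in control sham (-0.68 ± 0.15; adjusted p = 0.0123). Each TAC group lay below the sham group of its genotype, and this call held under all 20 settings. Kcnma1, the large-conductance calcium-activated pore, was too low to test, with 12, 2 and 9 counts in dKO TAC, 0, 2 and 0 in dKO sham, 2, 7 and 53 in control TAC, and 0 in all 3 control sham libraries.

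Of the pacemaker genes, Hcn2 and Hcn4 fell. Hcn2, on chromosome 10 from 79716634 to 79736108 and the most abundant of the family here, had 9.4, 14.3 and 12 CPM in dKO TAC, 36.5, 23 and 26 in dKO sham, 20.3, 12 and 13.6 in control TAC, and 21.9, 21.9 and 23.1 in control sham. All TAC libraries lay below all sham libraries. Hcn2 fell in dKO (-1.26 ± 0.24; adjusted p = 0.0119) and averaged over genotypes (-0.90 ± 0.17; adjusted p = 0.00478), and in control it had -0.54 ± 0.24 (adjusted p = 0.269). The interaction of -0.72 ± 0.34 had an unadjusted p of 0.0538. The dKO call was lost without dKO TAC replicate 1 (0.0708) or 3 (0.0527). Hcn4, the main sinus node form, had 4.94, 3.02 and 4.85 CPM in dKO TAC, 6.45, 6.87 and 6.21 in dKO sham, 6.59, 4.84 and 4.6 in control TAC, and 9.51, 6.21 and 13.3 in control sham (-0.73 ± 0.20 averaged; adjusted p = 0.0301). Its call was lost, at 0.0511 to 0.0903, without any 1 of dKO TAC replicates 1 and 2, dKO sham replicate 2, control TAC replicates 2 and 3 and control sham replicates 1 and 3. Per kb, Hcn2 made up 76.5% to 87.3% of the HCN sum in dKO TAC, 85.2% to 91.1% in dKO sham, 78.9% to 84.8% in control TAC and 75.9% to 85.5% in control sham, and of these dKO sham lay above control TAC while dKO TAC overlapped every other group. Hcn3 had at most 12 counts in a library.

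The leak channels did not pass. Kcnk3 had 164, 186 and 184 CPM in dKO TAC, 378, 254 and 248 in dKO sham, 277, 191 and 103 in control TAC, and 253, 232 and 229 in control sham. The dKO TAC libraries lay below the dKO sham libraries, and control TAC spread on both sides of control sham. Its averaged estimate was -0.52 ± 0.21 (adjusted p = 0.108). Kcnk2, which encodes the stretch-sensitive TREK-1, averaged 1.9 ± 0.0294 CPM in dKO TAC, 1.09 ± 0.0806 in dKO sham, 2.35 ± 1.32 in control TAC and 1.43 ± 0.33 in control sham, with an averaged estimate of 0.75 ± 0.30 (adjusted p = 0.106).

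The second question was whether channel genes differed between dKO and control. After TAC 1 of 57 members passed, Kcnip2, which was lower in dKO, where 0.428% of all genes passed, 0.306% higher and 0.122% lower. At an unadjusted p under 0.05 there were 1 higher and 5 lower, beside 8.87% of all genes. The dKO TAC libraries lay wholly above control TAC for 3 members, beside 9.8% of all genes, and wholly below for 7, beside 7.79%. After sham 0 of 57 passed, beside 0.068% of all genes, 0.0408% higher and 0.0272% lower (edgeR quasi-likelihood test). At an unadjusted p under 0.05 there were 5 members, all lower, beside 9.25% of all genes, and DESeq2 called 0. The dKO sham libraries lay wholly above control sham for 1 member, beside 9.27% of all genes, and wholly below for 7, beside 9.42%. Averaged over surgeries 0 passed, beside 0.585% of all genes, 0.326% higher and 0.258% lower. At an unadjusted p under 0.05 there were 1 higher and 9 lower, beside 12.9% of all genes. No member had all dKO libraries above or all below the controls, beside 0.863% and 0.544% of all genes. DESeq2 called 5, Kcna5, Kcnd2, Kcnip2, Kcnj14 and Kcnn2, beside 2.37% of all genes. The median log2 change of tested pore and silent subunits was -0.32 after TAC and -0.27 after sham, and of tested accessory subunits -0.46 and -0.41, beside -0.03 and 0.02 over all genes. The comparisons after TAC and after sham share no library.

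Markers of other cells differed between the TAC groups too, without passing the test. The atrial sum of 11.7 to 20.7 CPM in dKO TAC lay below the 55 to 214 CPM in control TAC. Of the 4 tested atrial markers 0 passed, with a median log2 change of -4.16, and 3 lay wholly below control TAC, beside 7.79% of all genes. These were Myl4, Myl7 and Sln, with unadjusted p-values of 0.00151, 0.004 and 0.00831 and adjusted p-values of 0.126, 0.206 and 0.281 in edgeR's test. After sham the median over the same 4 genes was 1.77, and none lay wholly on 1 side. Of the 6 pericyte and smooth muscle markers 0 passed after TAC and 3 lay wholly below control TAC, and of the 7 cardiomyocyte markers 0 passed, with 1 wholly above and 1 wholly below. The part of these markers' cells in the differences between dKO and control was not tested.

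Kcnip2 after TAC was lower in dKO by a log2 of -1.65 ± 0.28 (adjusted p = 0.0297), from the library values given above, in which the dKO TAC libraries of 32.3 to 50.6 CPM lay below the control TAC libraries of 94.9 to 179. After sham it had -0.21 ± 0.27 (adjusted p = 0.717), with overlapping groups. The call after TAC was lost, at adjusted p-values of 0.0554 to 0.184, without any 1 of the 3 dKO TAC libraries, control TAC replicate 1 or 3, or control sham replicate 1 or 3, and at 0.0604 when the 2 TAC groups were fitted alone. The log2 value stayed between -1.84 and -1.31 in all settings. Without control TAC replicate 1 the member that passed was Kcna5 in its place, beside 0.107% of all genes. Without control TAC replicate 2 Kcnj14 passed too, which made the count 2, beside 0.153%.

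Kcna5, Kcnn2, Kcnd2 and Kcnj14 each had an unadjusted p under 0.05 after TAC and did not pass. Kcna5 had -1.08 ± 0.26 after TAC (adjusted p = 0.115), -0.74 ± 0.26 after sham (adjusted p = 0.507) and -0.91 ± 0.18 averaged (adjusted p = 0.0517), and each dKO group lay below the control group of the same surgery. Kcnn2 had -0.63 ± 0.22 after TAC, -0.68 ± 0.22 after sham and -0.65 ± 0.15 averaged (adjusted p = 0.0974), again with separate groups in both surgeries. Kcnd2 had -0.74 ± 0.32 after TAC, -0.95 ± 0.32 after sham and -0.85 ± 0.23 averaged (adjusted p = 0.152). Kcnj14 had 2.04 ± 0.47 after TAC (adjusted p = 0.101), where the dKO libraries of 3.86 to 6.9 CPM lay above the control libraries of 0.562 to 2.42, and 0.51 ± 0.58 after sham. None of these 4 passed over all tested genes in these comparisons, and each passed under other settings. After TAC, Kcna5 passed with DESeq2, with no filter on low counts and without control TAC replicate 1. Kcnj14 after TAC passed with DESeq2, limma-voom and no filter, and without control TAC replicate 2. Averaged over surgeries, Kcna5 passed with RLE factors, with DESeq2, with no filter, with the length trend removed, with or without the replicate block, and without dKO sham replicate 1 or control TAC replicate 1. In the same comparison Kcnd2 passed with DESeq2 and with no filter, and Kcnn2 and Kcnj14 with DESeq2. Of the 11 tested accessory subunits 2, Kcnip2 among them, were lower after TAC at an unadjusted p under 0.05 in edgeR's test. Of all genes 8.87% had such a p in either direction. Per kb, Kcne1 had 1.25 to 1.92 CPM in dKO TAC, below the 2.4 to 3.12 in control TAC, and did not pass. Its ratio to Kcnq1 was 0.0981 to 0.159 in dKO TAC and 0.222 to 0.287 in control TAC. In dKO sham and control sham that ratio overlapped.

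**Figure D4:**
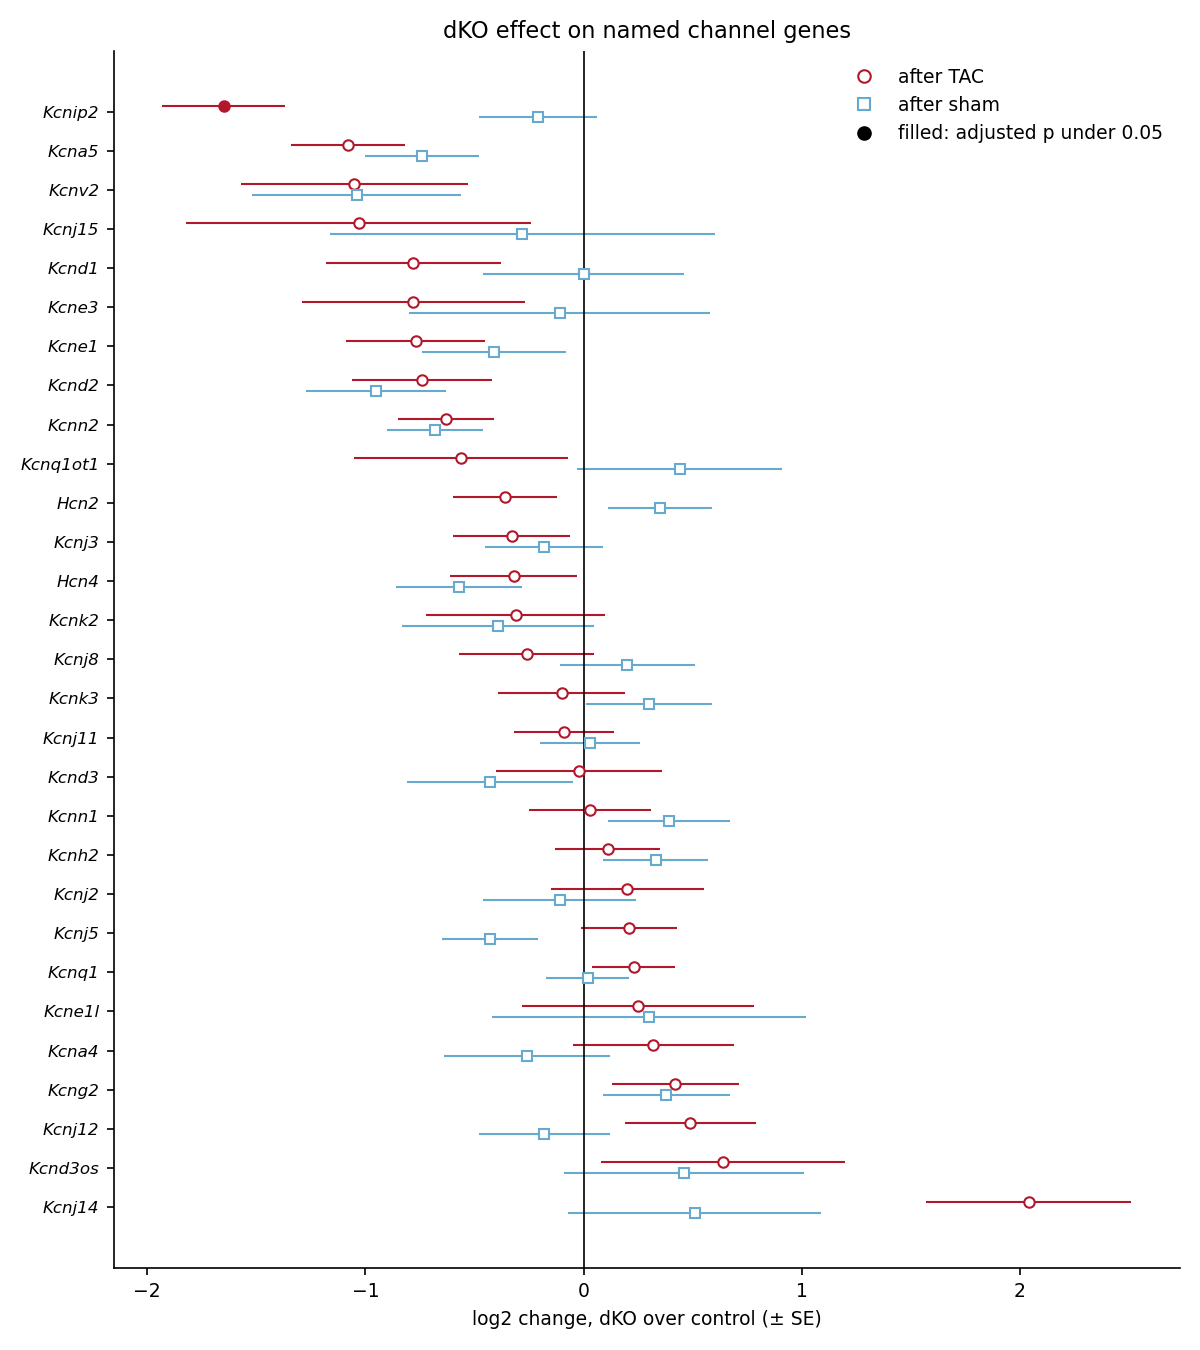
Log2 change of dKO over control after TAC (circles) and after sham (squares), with SE, for tested members that the rule named and the text describes. Kcnip2 after TAC, at -1.65, is the filled point, and Kcnj14 after TAC, at 2.04, lies farthest to the right without passing.

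Genes linked to the channels were measured in the same fit. Of 15 channel partners, which anchor or assemble with these subunits, 12 could be tested, and 1, Abcc9, passed in the averaged TAC comparison, beside 16.6% of all tested genes. Of 11 transcription factors known to act on channel genes in heart, 2 passed in that comparison, a share close to that of all genes, and both, Klf15 and Tbx5, fell. Klf15, a Krüppel-like factor known to drive Kcnip2 rhythm in mouse heart, averaged 25.6 CPM in dKO TAC, 56.1 in dKO sham, 25.9 in control TAC and 56.2 in control sham (-1.12 ± 0.24; adjusted p = 0.00892), with a dKO estimate of -0.01 ± 0.24 averaged over surgeries. Tbx5, a T-box factor of the conduction system, averaged 18.3 CPM in dKO TAC, 30.7 in dKO sham, 14 in control TAC and 25.2 in control sham (-0.80 ± 0.19; adjusted p = 0.0149). Irx3, an Iroquois factor of the ventricular conduction system, was higher in dKO averaged over surgeries (0.90 ± 0.17; adjusted p = 0.0392), with 23.5 CPM in dKO TAC, 31.6 in dKO sham, 11.8 in control TAC and 18 in control sham. Srf, the DNA-binding partner of the deleted factors, had -0.61 ± 0.13 in dKO averaged over surgeries (adjusted p = 0.0551).

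Promoter windows of 4 of the members that fell in dKO after TAC are shown so that the letters searched for can be read in them. RefSeq windows of 250 bases before a start site (GRCm38.p6) were found for 74 of the 103 members, 99 windows in all, and 57 of these belong to 40 tested members. The windows were searched on both strands for CACCC, the core letters bound by Krüppel-like factors such as Klf15, which reads GGGTG on the other strand, and for the CArG box bound by serum response factor. Capitals mark CACCC and GGGTG, and each sequence runs 5′ to 3′ on the strand of its gene. Kcnip2 is chr19:45816064-45816313 (minus strand), Kcnh2 is chr5:24329592-24329841 (minus strand, a start inside the annotated gene), Hcn2 is chr10:79716384-79716633 (plus strand) and Kcnj3 is chr2:55435720-55435969 (plus strand).
Kcnip2: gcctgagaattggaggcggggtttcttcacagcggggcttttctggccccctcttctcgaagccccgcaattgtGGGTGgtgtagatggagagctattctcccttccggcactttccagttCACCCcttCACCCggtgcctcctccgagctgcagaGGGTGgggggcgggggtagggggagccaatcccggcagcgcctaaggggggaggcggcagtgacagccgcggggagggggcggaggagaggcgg
Kcnh2: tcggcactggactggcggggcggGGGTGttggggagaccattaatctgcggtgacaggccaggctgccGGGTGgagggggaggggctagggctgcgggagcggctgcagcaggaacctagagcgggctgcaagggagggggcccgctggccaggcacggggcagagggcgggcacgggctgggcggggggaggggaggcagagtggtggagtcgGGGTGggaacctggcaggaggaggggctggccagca
Hcn2: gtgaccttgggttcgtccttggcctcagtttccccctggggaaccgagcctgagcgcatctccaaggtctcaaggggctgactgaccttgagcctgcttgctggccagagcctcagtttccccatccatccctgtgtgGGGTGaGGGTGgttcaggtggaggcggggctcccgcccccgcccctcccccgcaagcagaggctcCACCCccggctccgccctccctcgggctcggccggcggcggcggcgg
Kcnj3: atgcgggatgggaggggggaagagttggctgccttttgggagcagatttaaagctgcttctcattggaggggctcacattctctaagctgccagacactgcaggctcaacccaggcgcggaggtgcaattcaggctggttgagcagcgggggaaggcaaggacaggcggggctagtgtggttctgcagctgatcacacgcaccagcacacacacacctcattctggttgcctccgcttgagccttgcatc
The Kcnip2 window held 4 matches to CACCC, those of Kcnh2 and Hcn2 held 3 each, and that of Kcnj3 held 0. The motif was present in 43 of 57 windows of tested members (75.4%) and in 52% of all 32851 windows, so it is common in promoters. The CArG box was found in 0 of the 57 windows and in 1.47% of all windows. A match to these letters is a description of the sequence, and binding was not measured.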

How the data were processed

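RNA of 12 cardiomyocyte libraries, isolated by Langendorff digestion and gravity sedimentation, was sequenced single-end from a stranded poly(A) kit, per the labels' protocols. The deposited values are whole-number counts per gene, made by the authors with Trimmomatic 0.36, STAR 2.5.2b and featureCounts of Subread 1.5.0p3 on GRCm38.p5, per the submitters' processing notes. Neither the counting's strand setting nor its handling of multi-matching reads could be found (not given in the sources used here). Every count column was mapped to a sample by its labels. From the counts, CPM on TMM-scaled library sizes and edgeR 4.0.16 quasi-likelihood tests (R 4.3.3) were computed in 1 fit of all 12 libraries with 8 residual degrees of freedom, after edgeR's default filter by group. Benjamini-Hochberg adjustment covered 14712 genes and the threshold was 0.05. Log2 changes carry their SE. Exon lengths and gene coordinates came from GENCODE M21 (GRCm38), and near copies were sought with blastn 2.17.0. The main edgeR test was tried on simulated counts with known changes, drawn independently per library. That simulation held no length trend and no change of cell mixture, and it did not cover the other steps. Alternatives were RLE factors, DESeq2 1.42.0, limma 3.58.1 voom, no filter, a replicate block, removal of the transcript-length trend, the 2 compared groups alone and each library left out. Named genes were those of the main cardiac currents, each member that passed in any of 7 comparisons, the highest per kb in each role class and, per pair of groups, the 2 highest and 2 lowest changes at a mean of at least 1 CPM. Members, lists and this rule were chosen with earlier results of these data known. Kcnip1, Kcnip3 and the genes called under single settings were named after their values were seen. No pair of libraries in a group differed by as little as sampling noise. Some members counted among the 103 are not reported here by name.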

Additional observations from a re-analysis of the deposited data

How the results depend on the processing

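No single-gene result that passed changed direction under any setting run. Of the 26 results of single genes that passed, all kept their call with DESeq2, with RLE factors, with the replicate block and with the length trend removed, and 25 with limma-voom and with no filter. Counts are given with the share of all genes that passed. After TAC in control, 1 (2.25%) became 11 with DESeq2 (6.84%), 7 with no filter (3.32%) and 3 with the length trend removed (3.38%). It became 2 with the replicate block (1.71%) and 2 with block and length trend removal together (3.19%). With the 2 groups alone it was 0 (0.0142%), and without the pair dKO sham 1 and dKO TAC 2 it was 5 (5.17%). With single libraries left out it was 0 to 12 (0.0132% to 7.53%). The members tested were 92 with no filter, 59 without that pair and 58 to 61 with single libraries left out, against 57. After TAC in dKO, 6 (7.39%) became 11 with DESeq2 (16.2%), 10 with the length trend removed (10.5%) and 10 with block and length trend removal together (9.74%). With the 2 groups alone it was 5 (4.57%), with Kcnh2 lost. Without that pair it was 7 (10.6%), of which 4 were calls of the main fit, with Kcnj3 and Kcnv2 lost. With single libraries left out it was 2 to 8 (1.4% to 9.25%). For dKO after TAC, 1 (0.428%) became 3 with DESeq2 (2.18%), 2 with limma-voom (0.496%) and 3 with no filter (0.457%). It was 0 with the 2 groups alone (0.364%) and 0 to 2 with single libraries left out (0.0531% to 1.68%). For TAC averaged over genotypes, 18 (16.6%) became 11 to 24 with single libraries left out (8.8% to 20.5%). For dKO averaged over surgeries, 0 (0.585%) became 1 with RLE factors (0.605%), 5 with DESeq2 (2.37%) and 3 with no filter (0.616%). It became 2 with the length trend removed (0.85%) and 2 with block and length trend removal together (0.741%). Without that pair it was 1 (1.33%), and with single libraries left out 0 to 2 (0.252% to 1.02%). The counts for dKO after sham and for the interaction were 0 under each setting run. The causes were not tested. Same-numbered libraries correlated between -0.47 and 0.35 in their deviations from group means, with 0.35, 0.25 and -0.17 for replicates 1, 2 and 3 between the control groups. With 3 libraries per group this does not decide whether the numbers pair them. The replicate block added Kcne3 in control (2 calls, beside 1.71% of all genes) and Kcnj8 in dKO (7 calls, beside 6.37%). Fits with the 2 groups alone do not apply to the interaction or the averaged effects. At the lowest depth 3 counts equal 0.184 CPM, so Kcne1l and Kcne3 in sham rest on few counts.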

Other observations

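Kcnip1, which encodes another KChIP, was the 1 member with a positive interaction estimate at an unadjusted p under 0.05 (2.93 ± 1.24, edgeR quasi-likelihood adjusted p = 0.841). It had 0.507, 0.405 and 0 CPM in dKO TAC, 0.0614, 0.108 and 0.0376 in dKO sham, 0.187, 0.427 and 0.261 in control TAC, and 0.503, 0.257 and 0.818 in control sham. The dKO TAC libraries ran from no count to the level of control sham, and all dKO sham libraries lay below all control sham libraries. The dKO sham values equal 1, 3 and 1 counts, at or under the floor of 3 counts, so this interaction rests on few counts. Kcnma1 had its highest value, 53 counts, in control TAC replicate 3, the library with the highest fibroblast marker sum (7900 CPM).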
